A study of Homo sapiens with 20 samples.

Results

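Glycolysis and the pentose phosphate pathway are followed here through 31 genes in MDA-MB-468 breast cancer cells treated with epidermal growth factor (EGF). The 31 genes are a list of gene names, matched among the 60271 genes of the deposited count table. The rule used no measured value, but the list was drawn up with earlier results of these data known. They cover 2 glucose transporters, 2 hexokinases, 1 phosphoglucose isomerase, 3 phosphofructokinase subunits, 3 bifunctional PFKFB enzymes, 9 enzymes from aldolase to pyruvate kinase, 2 lactate dehydrogenase subunits, 2 monocarboxylate transporters, 1 pyruvate dehydrogenase kinase and 6 pentose phosphate enzymes. Of these, 29 had enough counts to be tested. The glucose transporter SLC2A3 and the aldolase ALDOC had not. SLC2A3 had at most 11 counts and ALDOC at most 12 counts in any of the 20 libraries, and no fold change is given for either.

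MDA-MB-468 is an epithelial line from a triple negative breast cancer. Cells were without serum for 24 h before EGF was added. The control was left without EGF, and the other groups received EGF at 50 ng/mL, added 12, 24, 48 or 72 h before the harvest. Each of the 5 groups had 4 biological replicates, which gave 20 libraries. The groups were seeded and harvested together and differed in when EGF was added. No other agent or genetic change separated the groups. How long each group, the control among them, was without serum in total is not given in the sources used here. If this time differed between groups, it cannot be told apart from the time of EGF. RNA was sequenced after Lexogen Corall mRNA library preparation. The level of a gene is given here in CPM, the count scaled to a common library size, with TMM factors unless stated otherwise. Levels are given per library or as mean ± SD of 4 libraries, and log2 fold changes with their standard error. All cells were of 1 line, and the RNA was from bulk cultures, in which a change in RNA per cell cannot be told apart from a change in the share of cells that express a gene.

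In glycolysis, glucose is taken up by transporters, trapped in the cell by hexokinase and cleaved to pyruvate, with a gain of ATP and NADH. Phosphofructokinase catalyzes the main committed step, and PFKFB enzymes make and degrade the sugar bisphosphate that activates it. In fast-growing cancer cells much of the pyruvate is reduced to lactate by lactate dehydrogenase and exported by monocarboxylate transporters, also when oxygen is present. The pentose phosphate pathway branches off after hexokinase. Its oxidative branch produces NADPH, and its non-oxidative branch interconverts sugar phosphates between ribose, needed for nucleotides, and glycolytic intermediates.

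Depth ranged from 15611961 to 25856953 counts per library. Mitochondrial genes held on average 10.9% of the counts in the control, and 9.41%, 12.4%, 12.5% and 15.0% in the order of the EGF times, and their part in the results below was tested only by leaving those genes out (2 of 119 calls were lost). The epithelial markers EPCAM, KRT8, KRT18, KRT19 and CDH1 were expressed in every library. They moved with EGF too: the mean of KRT18 was 843 CPM in the control and 4512 at 12 h, that of KRT8 157 and 640, and that of CDH1 136 in the control and 92.0 at 72 h. EGFR, which is highly expressed in this line, had a mean of 3716 CPM in the control and 10329 at 12 h. Levels in this paragraph are scaled by library size only, without TMM factors. Those factors were 1.06 to 1.08 in the control and 0.863 to 0.899 at 12 h. With them the rises at 12 h would be larger. Of 6 markers of other cell types, PTPRC and ALB had at most 8 counts in a library, and group means ranged from 0.430 to 1.39 CPM for LYZ, 0.329 to 4.52 for PECAM1 and 6.62 to 14.1 for COL1A1. CD68 moved with EGF, from a mean of 1.23 CPM in the control to 14.4 at 12 h and 27.1 at 72 h, and the part of these markers in the results was not tested. The variance between replicates was 3.77 to 66.0 times the sampling noise over 30 replicate pairs, and each of the 20 libraries was nearest to its own group.

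Levels of different genes are compared per kilobase of exon, in the control. GAPDH, which oxidizes glyceraldehyde phosphate, was the highest of the 31 genes, with a mean of 853 CPM per kilobase. ENO1 followed with 339, ALDOA with 248, and LDHA with 200.4 CPM per kilobase. The transaldolase TALDO1 was the highest pentose phosphate gene, with 155 CPM per kilobase. Among related genes, 1 form was usually far above the others: HK1 had 24.4 CPM per kilobase and HK2 3.5, ENO1 was above ENO2 with 0.541, and SLC16A1 with 4.61 was above SLC16A3 with 0.158. For phosphofructokinase, PFKL had 9.13, PFKP 8.03 and PFKM 0.987 CPM per kilobase.

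The first question was how many of the genes changed at each time. At 12 h, 22 of the 29 tested genes were higher than in the control and 1 was lower, at an adjusted p under 0.05 in edgeR's quasi-likelihood test over all 16522 genes tested. Of all tested genes, 32.9% were called higher and 36.5% lower. At 24 h, 18 were higher and 1 was lower, against 29.2% and 29.6% of all genes. At 48 h, 14 were higher and 5 lower, against 24% and 21.8% of all genes. At 72 h, 12 were higher and 6 lower, against 30.6% and 31% of all genes. The median log2 fold change of the 29 genes was 0.48, 0.33, 0.21 and 0.15 in the order of the times, where the median over all tested genes was -0.054, -0.0071, 0.0099 and -0.009. A rise of at least 1.5-fold was found for 13, 7, 6 and 7 genes in the order of the times, beside 20.3%, 16.9%, 15.3% and 20.2% of all genes. Groups without any overlap between libraries were found for 21, 17, 12 and 11 genes, beside 60.8%, 48.2%, 34.9% and 52% of all genes in either direction. All times were compared with the same 4 control libraries. Scaling by library size only moved the median log2 fold change of all genes by -0.28 at 12 h and -0.14 at 24 h. With it, 15 genes were higher and 4 lower at 12 h, and 14 were higher and 4 lower at 24 h. Of all 16522 genes, 3581 were then called higher and 8269 lower at 12 h. At 24 h, 3668 of all genes were called higher and 6420 lower. The calls lost with this scaling were those of PFKL, PFKFB4, TPI1, GAPDH, LDHB, PDK1 and RPIA at 12 h, HK1, PFKFB4, TPI1 and GAPDH at 24 h, PGK1, PGAM1 and LDHB at 48 h, and PFKFB2, ALDOA and GAPDH at 72 h. With DESeq2's size factors, the split at 72 h was 14 higher and 4 lower, beside 5225 higher and 4897 lower of all 16522 genes.

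Glycolysis and pentose phosphate genes were counted apart, without a test between them. At 12 h, 21 of the 23 tested glycolysis genes were higher and none was lower. Of the 6 pentose phosphate genes, 1 was higher and 1 lower, beside 32.9% and 36.5% of all tested genes. At 72 h, 12 glycolysis genes were higher and 1 was lower. None of the pentose phosphate genes was higher and 5 were lower, beside 30.6% and 31% of all tested genes. With DESeq2's size factors the calls of RPE and TALDO1 at 72 h were lost. With at least 10 counts in every library those of PGD, RPE and TALDO1 were lost. By gene, 19 of the 29 tested genes had their highest group mean at 12 h, 3 at each of the later times and 1 in the control. These means carry TMM factors, and the count was not repeated with scaling by library size only. The 19 include TKT and TALDO1, which were called higher at no time. TALDO1 had a mean of 210 CPM at 12 h and 208 in the control. The shares of all tested genes that peaked at 12 h, or were higher at all 4 times, were not counted. A group of 9 genes was higher than the control at all 4 times: SLC2A1, HK2, PFKP, PFKFB3, ENO2, LDHA, SLC16A1, SLC16A3 and PDK1. For PDK1 this did not hold under other settings: its value at 12 h was 0.20, adjusted p = 0.0618 with scaling by library size, and that at 48 h 0.30, adjusted p = 0.0894 in a fit of the 8 libraries compared.

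**Figure D1:**
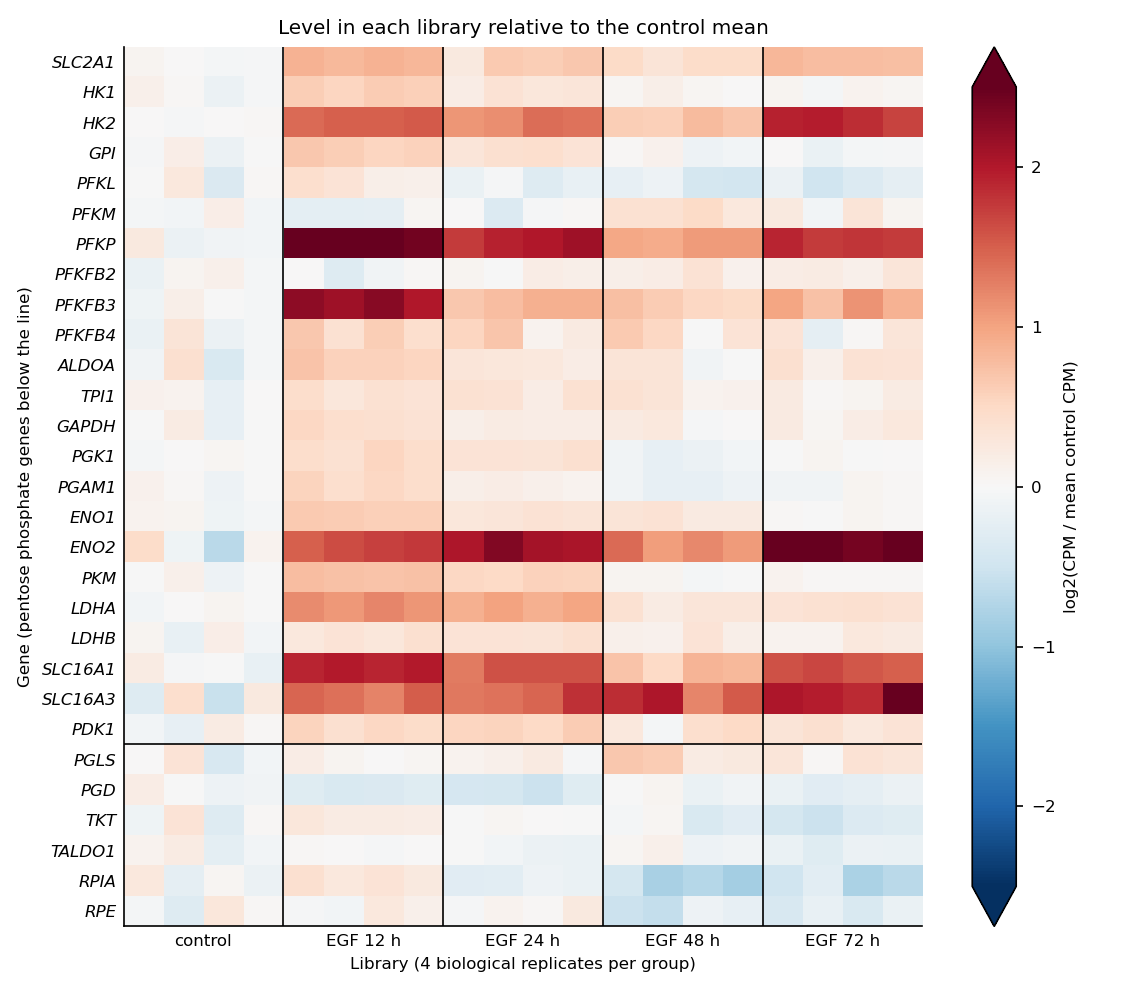
Level of the 29 tested genes in each of the 20 libraries, as log2 of the CPM over the mean control CPM (color), with the 4 libraries of a group side by side and the 6 pentose phosphate genes below the line. Red is above the control mean and blue below it. The columns at 12 h are red for most glycolysis genes, and HK2, PFKP, ENO2, SLC16A1 and SLC16A3 stay red to 72 h.

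SLC2A1, the main glucose transporter of proliferating cells, was higher at all times. Its level was 109.9, 106, 101 and 102 CPM in the 4 control libraries, 191, 184, 191 and 187 at 12 h, and 124, 164, 161 and 167 at 24 h. It was then 147, 132, 144 and 145 CPM at 48 h and 187, 179, 179 and 178 CPM at 72 h. No EGF library overlapped the control, and replicate 1 at 24 h was below the other 3 of its group. The log2 fold change was 0.84 ± 0.0725 (adjusted p = 3.26e-10) at 12 h and 0.55 ± 0.0725 (adjusted p = 6.05e-07) at 24 h. The later values were 0.44 ± 0.0723 (adjusted p = 2.76e-05) and 0.79 ± 0.0725 (adjusted p = 1.71e-09). Between 48 and 72 h it rose again, by 0.35 ± 0.072 (adjusted p = 0.000545) on the log2 scale.

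Both hexokinases, which phosphorylate glucose, rose at 12 and 24 h, and HK2, the inducible form, stayed higher. HK2 (chromosome 2, 74833981 to 74893359, hg38) was at 20.9, 20.3, 20.9 and 21.2 CPM in the control libraries and at 55.5, 58.9, 59 and 60 CPM at 12 h. It was then at 44.6, 46.9, 55 and 53.2 CPM at 24 h, 31.7, 31.5, 35.8 and 33.8 at 48 h and 78.8, 80.8, 74.7 and 67.6 at 72 h. The control values lay within 1 CPM of each other, and every EGF library was above them. At 12 h HK2 was 2.8-fold higher, and at the 3 later times 2.4-fold, 1.6-fold and 3.63-fold, with log2 fold changes of 1.49 ± 0.0756 (adjusted p = 2.61e-14) and 1.86 ± 0.0758 (adjusted p = 4.89e-16) at the first and last times. HK2 changed by -0.59 ± 0.0738 on the log2 scale from 24 to 48 h and by 1.18 ± 0.0736 (adjusted p = 2.65e-11) from 48 to 72 h. HK1, the form found in most tissues, went from a control mean of 114 ± 8.59 CPM to 172 ± 5.03 CPM at 12 h, with log2 fold changes of 0.59 ± 0.0616 (adjusted p = 8.98e-09) at 12 h and 0.28 ± 0.0616 (adjusted p = 0.000355) at 24 h. At 48 h it was at 119 ± 5.27 CPM and at 72 h at 117 ± 4.54 CPM, and neither passed the test. The phosphoglucose isomerase GPI, the next enzyme, had a similar course: 379 ± 34.2 CPM in the control, 575 ± 21.3 at 12 h and 489 ± 17 at 24 h, with log2 fold changes of 0.60 and 0.37, and 374 ± 26.7 and 364 ± 18.8 CPM at 48 and 72 h without a call.

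The 3 phosphofructokinase subunits had different courses. PFKP, the platelet-type subunit, had the largest fold change of all 29 genes at 12 h. PFKP (chromosome 10, 3066333 to 3137712) was at 36.1, 27.5, 28.7 and 29 CPM in the control libraries, 175, 174, 171 and 161 at 12 h and 101, 115, 122 and 131 at 24 h. It was at 59.4, 58, 63.5 and 63.1 CPM at 48 h and 113, 102, 105 and 102 at 72 h. Every EGF library was above all controls. The rise was 5.62-fold at 12 h and then 3.87-fold, 2.01-fold and 3.48-fold. Its log2 fold change was 2.49 ± 0.0854 (adjusted p = 2.03e-17) at 12 h. From 48 to 72 h PFKP rose by 0.79 ± 0.0811 (adjusted p = 6.24e-08) on the log2 scale. PFKL, the liver-type subunit, was at 27 ± 4.62 CPM in the control and 32.5 ± 3.28, 23.9 ± 1.96, 22 ± 2.63 and 21.9 ± 2.37 CPM at the 4 times. It was called higher at 12 h (log2 fold change 0.27) and lower at 48 h (-0.30) and 72 h (-0.30), but the sign at 12 h turned with scaling by library size (-0.018), the groups overlapped, and the calls were lost without single libraries, as given below. PFKM, the muscle-type subunit, was at 4.57, 4.49, 5.29 and 4.51 CPM in the control and 6.15, 6.11, 6.57 and 5.66 CPM at 48 h, the only time it was called (log2 fold change 0.38 ± 0.117, adjusted p = 0.011).

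Among the bifunctional enzymes, PFKFB3, whose kinase activity exceeds its phosphatase activity, showed a burst at 12 h. PFKFB3 (chromosome 10, 6144934 to 6254644) was at 7.28, 8.65, 7.72 and 7.59 CPM in the control libraries and at 36.8, 33.7, 37.9 and 31.2 CPM at 12 h. At 24 h the values were 12.4, 13.3, 14.4 and 14.5 CPM, at 48 h 13.2, 12.1, 11.2 and 10.9 and at 72 h 15.5, 13, 17 and 14.2. The 12 h libraries were above all others, and the later EGF libraries were also above all controls. This was a 4.46-fold rise at 12 h (log2 fold change 2.16 ± 0.0972, adjusted p = 2.96e-15), followed by 1.75-fold, 1.51-fold and 1.91-fold at the later times. Between 12 and 24 h PFKFB3 fell by 2.55-fold, the largest fall of any of the 29 genes in that interval. PFKFB4 was at 4.45 ± 0.744 CPM in the control and was called at 12 h (log2 fold change 0.52 ± 0.164, adjusted p = 0.00732) and 24 h (0.40 ± 0.165, adjusted p = 0.0397). PFKFB2 was at 20.4 ± 1.7 CPM in the control and was called only at 72 h, with 23.5 ± 1.25 CPM and a log2 fold change of 0.20 ± 0.0866 (adjusted p = 0.0479).

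**Figure D2:**
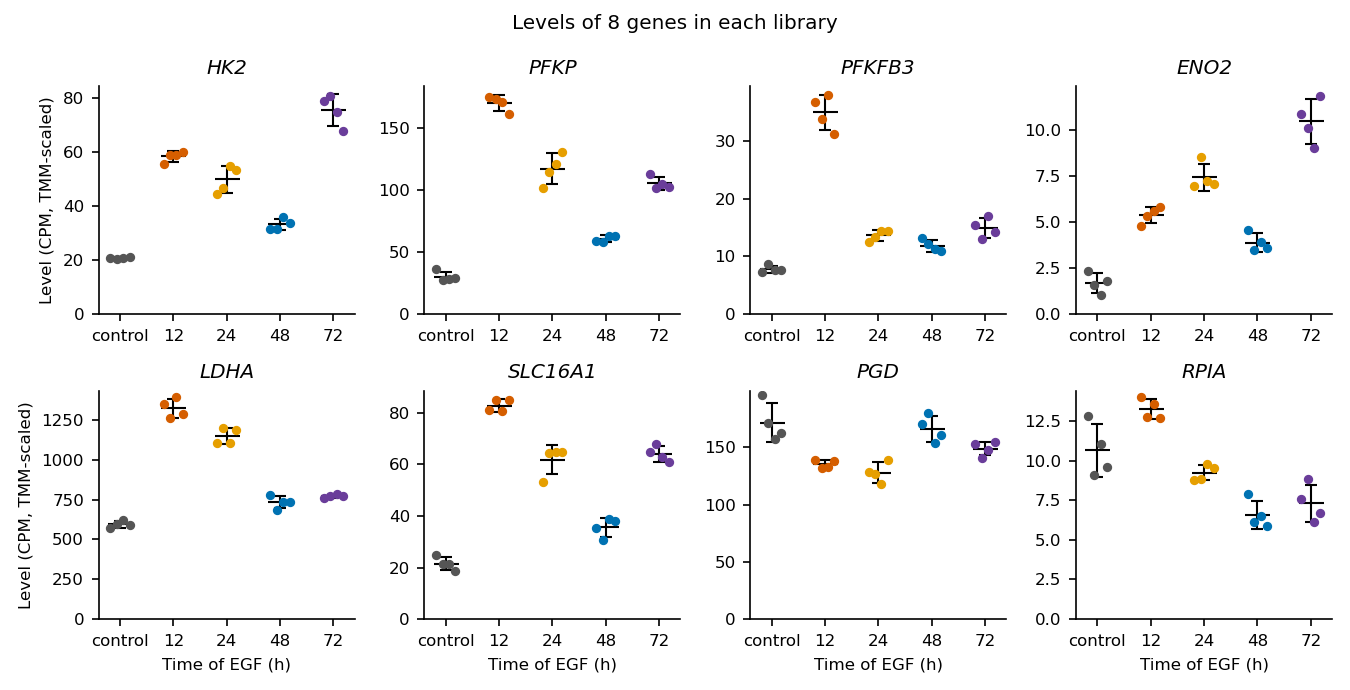
Level in CPM of 8 genes in each of the 20 libraries (points) with the mean and SD of each group (bars), by time of EGF in hours. PFKP and PFKFB3 are highest at 12 h, HK2 and ENO2 at 72 h, and PGD is lower in all libraries at 12 and 24 h than in any control library.

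The middle enzymes of glycolysis, from aldolase to phosphoglycerate mutase, are described next. ALDOA, which splits fructose bisphosphate, was at 597 ± 138 CPM in the control and 906 ± 52.8 at 12 h, a log2 fold change of 0.60 ± 0.118 (adjusted p = 0.000103). TPI1, which interconverts the triose phosphates, was called at 12, 24 and 48 h, with log2 fold changes of 0.36, 0.33 and 0.23. With scaling by library size it was not called at 12 h (0.079, adjusted p = 0.393) or 24 h (0.19, adjusted p = 0.0524). GAPDH, a common reference gene of qPCR, was at 1880.4, 2194, 1641 and 1872 CPM in the control libraries and 2708, 2522, 2491 and 2428 at 12 h. It was at 2107, 2199, 2156 and 2143 CPM at 24 h, 2219.7, 2262, 1847 and 1900.5 at 48 h and 2222, 1949, 2169.8 and 2277 at 72 h. All 4 libraries at 12 h were above all controls, while the later groups overlapped the control. The log2 fold change of GAPDH was 0.42 ± 0.0772 (adjusted p = 4.02e-05) at 12 h, 0.18 ± 0.0771 (adjusted p = 0.0467) at 24 h and 0.18 ± 0.0771 (adjusted p = 0.0426) at 72 h. With scaling by library size only, the value at 12 h was 0.13 (adjusted p = 0.122), at 24 h 0.038 and at 72 h 0.11, and none was called.

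PGK1, the first ATP-forming enzyme of the pathway, was at 469, 493, 501 and 484 CPM in the control libraries, 656, 631, 709 and 658 at 12 h and 616, 613, 605 and 642 at 24 h. At 48 h it was at 458, 421, 439 and 462 CPM, and at 72 h at 483, 509, 483 and 492. The libraries at 12 and 24 h were all above the control, and those at 48 h all below it. Its log2 fold change was 0.45 ± 0.0513 (adjusted p = 4.47e-08) at 12 h, 0.35 ± 0.0513 (adjusted p = 3.56e-06) at 24 h and -0.13 ± 0.0513 (adjusted p = 0.0415) at 48 h, and from 24 to 48 h PGK1 changed by -0.48 ± 0.0514 (adjusted p = 7.06e-08). PGAM1, the next enzyme, rose at 12 h (log2 fold change 0.48 ± 0.0612, adjusted p = 2.13e-07) and was called lower at 48 h, with 112 ± 4.71 CPM against 125 ± 8.7 in the control (log2 fold change -0.16 ± 0.0613, adjusted p = 0.0388).

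Of the enolases, ENO1 is the general form and ENO2 the form best known from neurons. ENO1 was at 814 ± 53 CPM in the control and rose at 12, 24 and 48 h, with log2 fold changes of 0.62 ± 0.0533, 0.32 ± 0.0531 and 0.29 ± 0.0531 (SE). At 72 h it was at 834 ± 18.3 CPM and was not called. ENO2 (chromosome 12, 6913745 to 6923698) was at 2.36, 1.6, 1.07 and 1.82 CPM in the control libraries, 4.79, 5.33, 5.63 and 5.83 at 12 h and 6.96, 8.52, 7.24 and 7.07 at 24 h. It was at 4.6, 3.52, 3.91 and 3.58 CPM at 48 h and 10.9, 10.1, 9.04 and 11.9 at 72 h. Each EGF library was above all controls. ENO2 rose 3.18-fold at 12 h, and then by 4.38-fold, 2.29-fold and 6.16-fold, the largest fold change of the 29 genes at 24 and 72 h. The log2 fold change at 72 h was 2.62 ± 0.162 (adjusted p = 1.15e-12), and the change from 48 to 72 h was 1.43 ± 0.147 (adjusted p = 6.66e-08). The pyruvate kinase PKM, which forms pyruvate and ATP, was at 459, 508, 426 and 463 CPM in the control libraries, 789, 768, 765 and 769 at 12 h and 667, 659, 694 and 685 at 24 h. At 48 h it was at 472 ± 20.9 CPM and at 72 h at 477 ± 10.2 CPM. PKM was called at 12 h (log2 fold change 0.74 ± 0.0541, adjusted p = 2.08e-11) and 24 h (0.54 ± 0.054, adjusted p = 7.03e-09), and changed from 24 to 48 h by -0.52 ± 0.054 (adjusted p = 4.02e-08) on the log2 scale, to a level not called against the control. The counts do not separate its splice forms.

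Genes of lactate production and export follow. LDHA, the subunit that favors reduction of pyruvate to lactate, was at 571, 598, 624 and 587 CPM in the control libraries and 1349, 1261, 1391 and 1284 at 12 h. It was at 1103, 1197, 1101 and 1184 CPM at 24 h, 777, 684, 734 and 732 at 48 h and 757, 770.3, 782 and 769 at 72 h. No EGF library overlapped the control. The rise was 2.22-fold at 12 h (log2 fold change 1.15 ± 0.0539, adjusted p = 5.87e-15), and at the 3 later times 1.93-fold, 1.23-fold and 1.29-fold. LDHB, the subunit that favors the reverse reaction, was at 35.5 ± 3.75 CPM in the control and 45.4 ± 1.08 at 24 h, with log2 fold changes of 0.33, 0.35 and 0.19 at 12, 24 and 48 h. With scaling by library size the value at 12 h was 0.042, adjusted p = 0.652.

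SLC16A1, a monocarboxylate transporter that carries lactate in either direction, was at 24.7, 21.2, 21.3 and 18.8 CPM in the control libraries and 80.9, 84.8, 80.6 and 85 at 12 h. At 24 h it was at 53.2, 64.5, 64.7 and 65 CPM, at 48 h at 35.4, 30.5, 38.9 and 37.9 and at 72 h at 64.6, 68, 62.7 and 60.7. Every EGF library was above all controls. The rise was 3.85-fold at 12 h (log2 fold change 1.95 ± 0.0874, adjusted p = 2.81e-15), then 2.88-fold and 1.66-fold, and 2.98-fold at 72 h (log2 fold change 1.57 ± 0.0872, adjusted p = 1.46e-13). SLC16A3, the transporter best known for lactate export, had few reads, with 0.652, 1.09, 0.554 and 0.96 CPM in the control libraries, 2.22, 2.12, 1.93 and 2.34 at 12 h and 2.03, 2.09, 2.24 and 2.88 at 24 h. It was at 2.93, 3.32, 1.9 and 2.35 CPM at 48 h and 3.31, 3.18, 2.96 and 4.72 at 72 h, and no EGF library was as low as a control. Its log2 fold change was 1.39 ± 0.234 (adjusted p = 1.27e-05) at 12 h and 2.10 ± 0.227 (adjusted p = 2.39e-08) at 72 h, and no step between neighboring times was called. PDK1, a kinase that inhibits pyruvate dehydrogenase and so the entry of pyruvate into mitochondrial oxidation, was at 27.5 ± 3.26 CPM in the control. It was at 38.5 ± 1.72, 40.4 ± 1.76, 34 ± 5.39 and 34.6 ± 1.44 CPM at the 4 times, with log2 fold changes of 0.48, 0.55, 0.30 and 0.33.

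**Figure D3:**
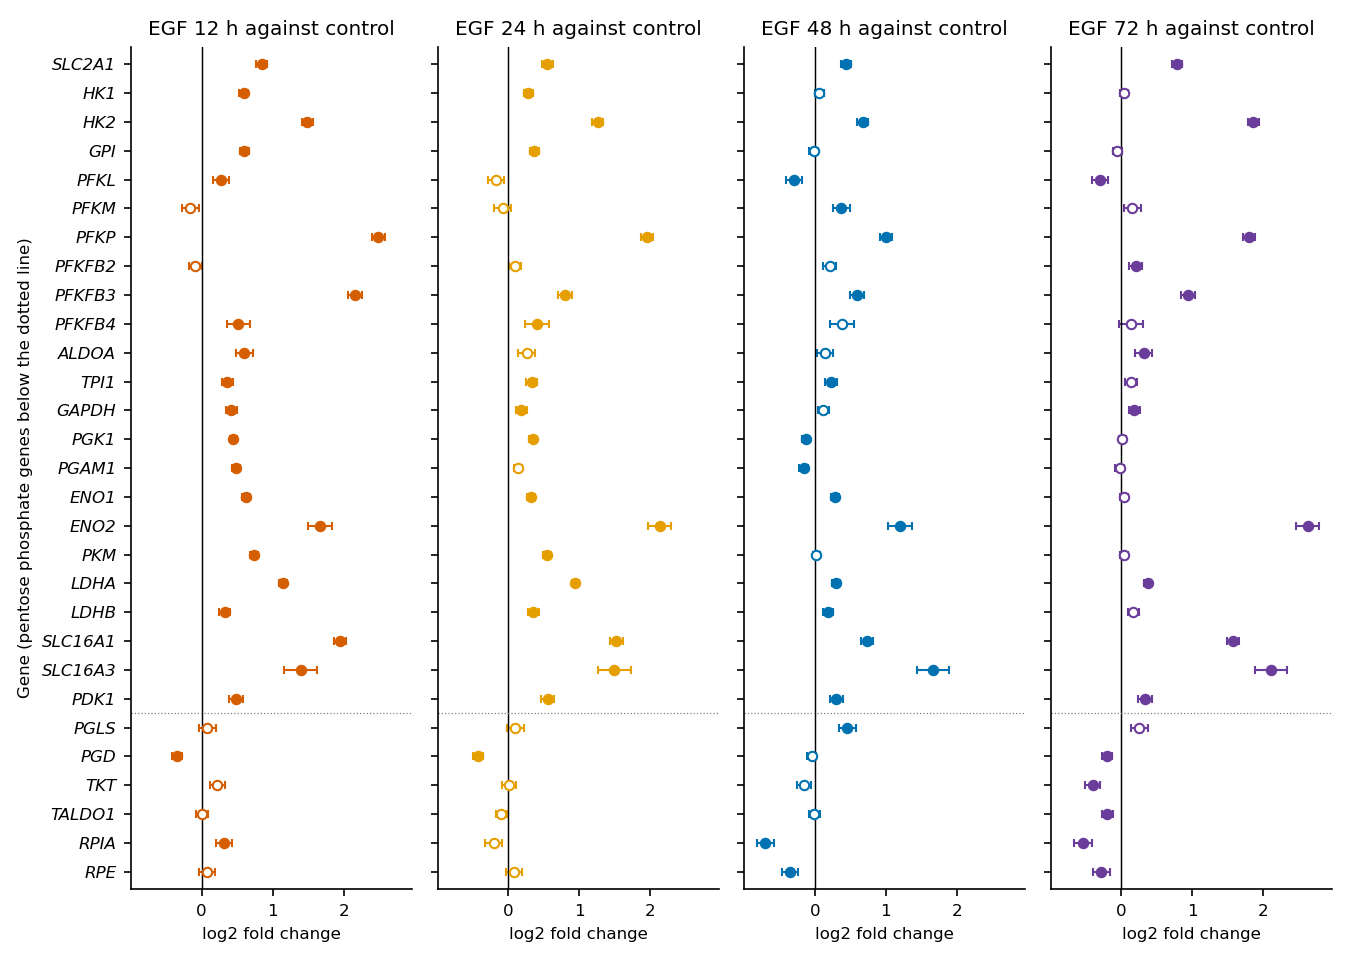
Log2 fold change against the control (points) with its standard error (bars) for the 29 tested genes at each time, from edgeR. Filled points passed an adjusted p of 0.05 and open points did not, and the 6 pentose phosphate genes lie below the dotted line. The glycolysis genes lie to the right of 0 at 12 h except PFKM and PFKFB2 (PFKL also turns left with scaling by library size), and 5 of the pentose phosphate genes are filled and left of 0 at 72 h.

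In the oxidative branch of the pentose phosphate pathway, PGD, the dehydrogenase that forms ribulose phosphate and NADPH, was lower at 12, 24 and 72 h. PGD (chromosome 1, 10398592 to 10420144) was at 195, 171, 157 and 162 CPM in the control libraries, 139, 132, 133 and 138 at 12 h and 129, 126, 118 and 139 at 24 h. It was at 170.3, 179.7, 153 and 161 CPM at 48 h and 152, 141, 148 and 154 at 72 h. The groups at 12, 24 and 72 h lay below all controls, and the group at 48 h overlapped them. With at least 10 counts in every library the call of PGD at 72 h was lost (adjusted p = 0.0626 in edgeR). The log2 fold change of PGD was -0.34 ± 0.0701 (adjusted p = 0.000149) at 12 h, -0.42 ± 0.0703 (adjusted p = 1.75e-05) at 24 h and -0.20 ± 0.07 (adjusted p = 0.015) at 72 h, and from 24 to 48 h it rose by 0.38 ± 0.0703 (adjusted p = 0.000111). PGLS, the lactonase before it, was called only at 48 h, with 153, 149, 111 and 114 CPM against 96.9, 122, 73 and 91.6 in the control libraries (log2 fold change 0.46 ± 0.122, adjusted p = 0.00375). The groups overlapped.

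In the non-oxidative branch, all 4 genes were called lower at 72 h. The calls of RPE and TALDO1 were lost with DESeq2's size factors (adjusted p = 0.0582 and 0.0536 in edgeR). They were also lost with at least 10 counts in every library and in the fit of the 8 libraries compared. Among the 4, only RPIA had all libraries at 72 h below all controls. RPIA, the isomerase that makes ribose phosphate (chromosome 2, 88691644 to 88750935), was at 12.8, 9.12, 11 and 9.6 CPM in the control libraries, 14, 12.7, 13.6 and 12.7 at 12 h and 8.79, 8.86, 9.8 and 9.51 at 24 h. At 48 h it was at 7.86, 6.11, 6.49 and 5.89 CPM and at 72 h at 7.55, 8.81, 6.14 and 6.7. All libraries at 48 and 72 h were below all controls, and 2 of the libraries at 12 h were above all of them. RPIA changed by 0.32 ± 0.116 (adjusted p = 0.0188) on the log2 scale at 12 h, -0.69 ± 0.121 (adjusted p = 5.18e-05) at 48 h and -0.54 ± 0.121 (adjusted p = 0.000475) at 72 h. RPE, the epimerase of ribulose phosphate, was at 60.3 ± 10.2 CPM in the control, 47.2 ± 7.49 at 48 h and 49.7 ± 4.39 at 72 h, with log2 fold changes of -0.35 and -0.28. The transketolase TKT was called only at 72 h, with 189, 176, 201 and 207 CPM against 238, 322, 204 and 259.6 in the control libraries (log2 fold change -0.40 ± 0.102, adjusted p = 0.00149). TALDO1, which works beside it, was at 182 ± 9.07 CPM at 72 h against 208 ± 28.5 in the control (log2 fold change -0.20 ± 0.0792, adjusted p = 0.0347).

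Some of these calls rested on single libraries. Leaving out each of the 20 libraries in turn ended 18 calls against the control, in 14 genes, none with an adjusted p under 0.0107 in the full fit. No call of SLC2A1, HK2, PFKP, PFKFB3, ENO2, LDHA, SLC16A1 or SLC16A3 against the control was lost in these repeats. At 12 h the call of PFKL was lost without control replicates 1, 3 or 4 or 12 h replicates 1 or 2 (adjusted p = 0.0513 to 0.16). RPIA was lost without control replicates 2 or 4 (adjusted p = 0.0595 to 0.0679). At 24 h the call of GAPDH was lost without any 1 library at 24 h, control replicates 1, 3 or 4, 12 h replicates 2 or 3 or 72 h replicates 1 or 3 (adjusted p = 0.0506 to 0.178). PFKFB4 was lost without control replicates 1, 3 or 4 or 24 h replicates 1 or 2 (adjusted p = 0.0784 to 0.156).

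At 48 h the call of LDHB was lost without any 1 library at 12 h or 24 h, control replicates 2 or 4, 48 h replicates 3 or 4 or 72 h replicates 2, 3 or 4 (adjusted p = 0.0507 to 0.198). PDK1 was lost without 48 h replicate 4 (adjusted p = 0.0577). PFKL was lost without control replicates 1, 2 or 4 or 48 h replicates 3 or 4 (adjusted p = 0.0571 to 0.148). PGAM1 was lost without control replicates 1, 2 or 4 or 48 h replicates 2, 3 or 4 (adjusted p = 0.0515 to 0.126). PGK1 was lost without control replicates 2, 3 or 4, 12 h replicates 1 or 4, 24 h replicate 2, 48 h replicates 1, 2 or 3 or 72 h replicates 3 or 4 (adjusted p = 0.0503 to 0.129). RPE was lost without control replicate 3 or 48 h replicates 1 or 2 (adjusted p = 0.0598 to 0.0791). TPI1 was lost without control replicate 3 or 48 h replicates 1 or 2 (adjusted p = 0.0634 to 0.0975).

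At 72 h the call of ALDOA was lost without control replicates 1, 3 or 4 or 72 h replicates 1 or 3 (adjusted p = 0.0515 to 0.105). GAPDH was lost without control replicates 1, 3 or 4 or 72 h replicates 1, 3 or 4 (adjusted p = 0.0718 to 0.174). PFKFB2 was lost without control replicates 1 or 4, 12 h replicates 1 or 3, 24 h replicates 1 or 4, 48 h replicate 1 or 72 h replicates 1, 2 or 4 (adjusted p = 0.05 to 0.153). PFKL was lost without control replicates 2 or 4 or 72 h replicates 2 or 3 (adjusted p = 0.0558 to 0.132). PGD was lost without control replicate 1 or 72 h replicate 2 (adjusted p = 0.055 to 0.0826). RPE was lost without control replicates 3 or 4 or 72 h replicates 1 or 3 (adjusted p = 0.0745 to 0.181). TALDO1 was lost without control replicates 1 or 2 or 72 h replicates 1, 2 or 4 (adjusted p = 0.0518 to 0.168).

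The steps between neighboring times are described next. From 12 to 24 h, 15 of the 29 genes fell and 1 rose, beside 25.9% and 27.9% of all genes, and the 1 that rose was ENO2 (log2 change 0.46 ± 0.147, adjusted p = 0.0104). From 24 to 48 h, 13 fell and 3 rose, beside 24.3% and 25.9% of all genes. Among those that fell were PFKP (log2 change -0.94), ENO2 (-0.94), SLC16A1 (-0.79), LDHA (-0.65) and HK2 (-0.59), and the 3 that rose were PFKM (0.45), PGD (0.38) and PGLS (0.36). From 48 to 72 h, 7 rose and 1 fell, beside 17.9% and 17.9% of all genes. The 7 were SLC2A1, HK2, PFKP, PFKFB3, PGK1, ENO2 and SLC16A1, with log2 changes from 0.14 for PGK1 to 1.43 for ENO2, and ENO1 changed by -0.25 ± 0.0531 (adjusted p = 0.000663). With scaling by library size only, 2 genes rose and 8 fell from 12 to 24 h, and 5 rose and 10 fell from 24 to 48 h. From 48 to 72 h, 6 rose and 5 fell. Of all 16522 genes, 6103 rose and 2799 fell with this scaling from 12 to 24 h. For all genes the counts were 5940 and 2341 from 24 to 48 h, and 2134 and 4175 from 48 to 72 h. A fall from 24 to 48 h followed by a rise to 72 h was called for 5 genes, HK2, PFKP, PGK1, ENO2 and SLC16A1. The share of all genes with this course was not counted. For PGK1 the rise was lost with scaling by library size (0.056, adjusted p = 0.439) and without a filter (0.15, adjusted p = 0.19). The rise of PGLS from 24 to 48 h was also lost without a filter (0.35, adjusted p = 0.0522).

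Between neighboring times, 5 calls were lost in the same way. From 12 to 24 h the call of ALDOA was lost without 12 h replicate 1 (adjusted p = 0.0545). HK2 was lost without 24 h replicate 1 (adjusted p = 0.052). From 24 to 48 h the call of PDK1 was lost without 24 h replicates 2 or 4 or 48 h replicates 1 or 2 (adjusted p = 0.0513 to 0.138). PGLS was lost without 24 h replicate 4 or 48 h replicates 1 or 2 (adjusted p = 0.0637 to 0.0809). From 48 to 72 h the call of PGK1 was lost without 48 h replicates 2 or 3 or 72 h replicates 2 or 4 (adjusted p = 0.0582 to 0.0976).

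As a share of all counts in a library, the 31 genes together held 0.71% ± 0.0649 (SD over 4 libraries) in untreated cells and 0.874% ± 0.0145 at 12 h. The share was 0.82% ± 0.0032 at 24 h, 0.78% ± 0.048 at 48 h and 0.752% ± 0.0324 at 72 h. The 4 libraries at 12 h and the 4 at 24 h were all above the control, and those at 48 and 72 h overlapped it. GAPDH alone held 0.203% ± 0.0255 in the control and 0.223% ± 0.0087 at 12 h. The 6 pentose phosphate genes held 0.086% ± 0.0104 in the control, and 0.0722% ± 0.00122, 0.0734% ± 0.00159, 0.0851% ± 0.00739 and 0.0706% ± 0.0041 in the order of the times. These shares carry no TMM factors. In the fit with TMM factors the median log2 fold change of these 6 genes was 0.079 at 12 h.

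Ratios of related genes within a library hardly depend on how libraries are scaled. The log2 ratio of 10 pairs was compared between each time and the control by a two-sided exact permutation test, with Benjamini-Hochberg adjustment over the 40 tests. With 4 libraries against 4 the smallest possible p is 0.0286, and a complete separation of the groups gave an adjusted p of 0.044. Without the pairs of SLC2A3 and ALDOC, which were near 0, 22 of 32 tests reached it. The share of other gene pairs that reach it was not counted. Of all single genes, 34.9% (48 h) to 60.8% (12 h) had groups without overlap against the control. A ratio was called at all 4 times for HK2 over HK1, PFKP over PFKL, ENO2 over ENO1 and PFKFB2 over PFKFB3 (exact permutation test, adjusted p = 0.044 each). The log2 ratio of HK2 to HK1 was -2.42 ± 0.116 (SD) in the control and -0.63 ± 0.149 at 72 h. The ratio of PFKP to PFKL was 0.17 ± 0.319 in the control and 2.38 ± 0.104 at 12 h. The ratio of ENO2 to ENO1 went from -8.56 ± 0.295 to -6.25 ± 0.172 at 72 h. The log2 ratio of PFKFB2 to PFKFB3, which is not corrected for gene length, was 1.33 ± 0.0964 in the control and -0.85 ± 0.205 at 12 h. LDHB over LDHA was lower at 12 h (change of -0.82) and 24 h (-0.59), and SLC16A3 over SLC16A1 was lower at 12 h (-0.90). This last change depends on the 0.5 CPM added, as SLC16A3 had a mean of 0.815 CPM in the control. Without it the groups overlapped: 13 counts over 492 in control replicate 1 is a lower ratio than 44 over 1603 in 12 h replicate 1. ENO2, with a control mean of 1.71 CPM, is affected by the added value too. PFKM over PFKL was called at no time.

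**Figure D4:**
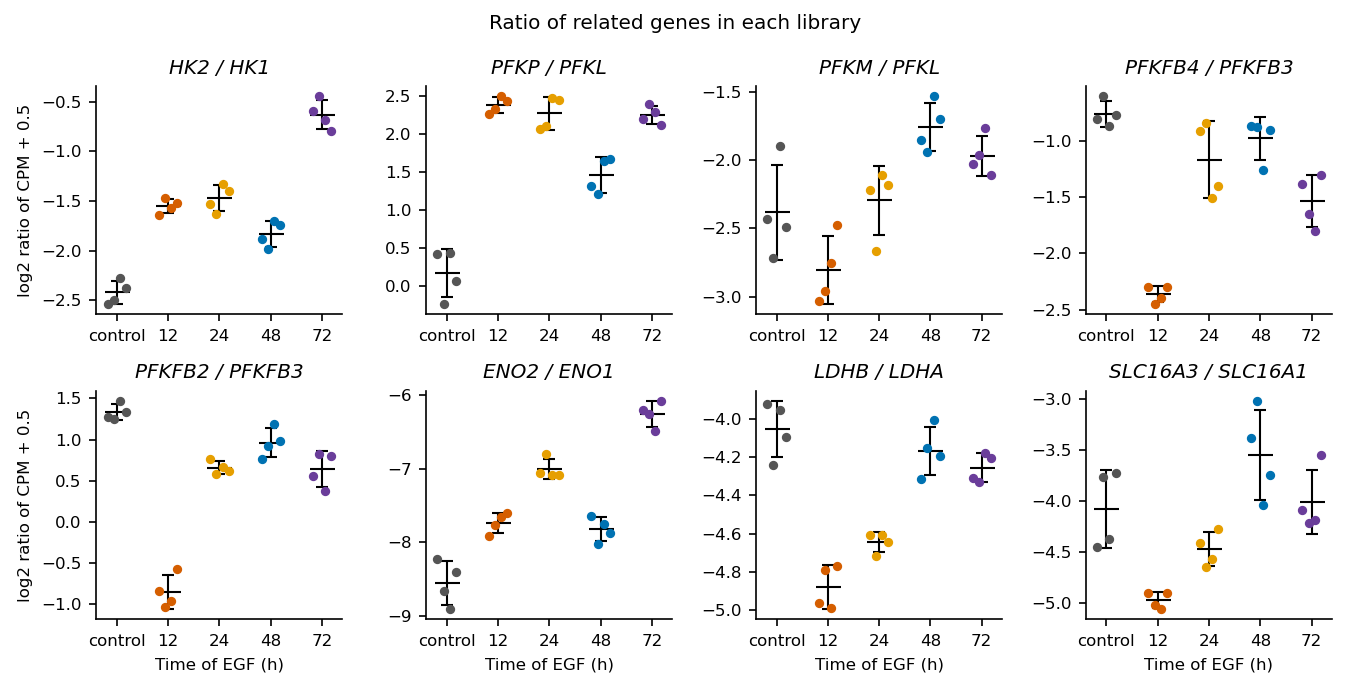
Log2 ratio of the CPM of related genes, each with 0.5 CPM added, in each of the 20 libraries (points) with the mean and SD of each group (bars), by time of EGF in hours. HK2 over HK1 and ENO2 over ENO1 are highest at 72 h, PFKP over PFKL is above the control at all times, and PFKFB2 over PFKFB3 is lowest at 12 h.

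Genes of the pathways that surround these enzymes, from a list of 44 genes (other hexose transporters, gluconeogenesis, pyruvate dehydrogenase and its regulators, mitochondrial pyruvate carriers, and side routes), were counted in the same fit. Of the 35 tested, 7 were higher and 19 lower at 12 h, 8 higher and 13 lower at 24 h, 13 higher and 4 lower at 48 h, and 15 higher and 14 lower at 72 h, beside the shares of all genes given above. Their median log2 fold change was -0.39, -0.22, 0.082 and 0.032 at the 4 times. The examples are the 2 largest rises and falls called at each time among genes with a mean of at least 1 CPM over all 20 libraries. The falls at 12 h were of PDK2, another kinase of pyruvate dehydrogenase, with 4.05 ± 0.632 CPM at 12 h against 13.5 ± 1.75 in the control, a log2 fold change of -1.73 ± 0.141, and of GALM, an epimerase of free sugars, with 1.01 ± 0.373 CPM at 12 h against 4.09 ± 0.362 in the control, a log2 fold change of -2.02 ± 0.234. PDK2 was also lower at 24 h (log2 fold change -1.43) and 72 h (-0.92), at times when PDK1 was higher. PDK3, another such kinase, fell outside this rule and is named after its values were seen. Its mean was 132 ± 18.4 CPM in the control and 53.8 ± 4.4 at 12 h. The log2 fold changes of PDK3 were -1.29, -0.35, 0.41 and -0.41 in the order of the times, all called. The rises at 12 and 24 h were of PDP1, the phosphatase that reactivates pyruvate dehydrogenase, with log2 fold changes of 0.79 and 0.73, and of PRPS1, which makes phosphoribosyl pyrophosphate from ribose phosphate, with 0.78 and 0.84. RBKS, a ribokinase, was another of the falls at 24 h (-1.49). At 48 and 72 h the rises were of ENO3, the muscle enolase (1.66 and 1.61), and SLC2A12, a hexose transporter (1.12 and 1.39). HKDC1, a hexokinase, fell outside this rule and is named after its values were seen. Its mean was 0.0317 ± 0.0403 CPM in the control, 0.572 ± 0.144 at 24 h, 1.04 ± 0.173 at 48 h and 1.74 ± 0.0501 at 72 h, it was called higher at these 3 times, and all 4 libraries of each were above all controls. The falls were of DLD, a subunit shared by mitochondrial dehydrogenases (-0.49), and SHPK, a kinase of sedoheptulose (-0.55) at 48 h, and of PDK2 and SLC2A6, a hexose transporter (-1.02) at 72 h.

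Promoter windows were read to see which short motifs the members share. RefSeq windows of 250 bases before to 50 after a transcription start (GRCh38.p14) were at hand for 28 of the 31 genes, in 54 windows. The hypoxia response element core, ACGTG or GCGTG on either strand, was in 33 of the 54 windows (61.1%) and in 48.4% of all 35116 windows. The E-box CACGTG, which contains the core ACGTG, was in 11.1% of the members' windows and 7.26% of all, and the GC box GGGCGG in 70.4% and 45.0%. TGACTCA, the AP-1 motif, was in 5.56% of the members' windows and 4.95% of all, and TGACGTCA, the CRE motif, in 1.85% of both. All 8 matched genes among the 9 that were higher at all times held the ACGTG or GCGTG core in at least 1 window, as did 23 of all 28. A gene can have several windows, and the share of all genes with the core in at least 1 window was not counted. The 9 genes were picked by their levels in these data. A match in these windows is a description of the sequence and not a bound site. The stretches below are those before the start that overlap no annotated exon. They are for PFKFB3, which showed the burst at 12 h (chr10:6144671-6144920, plus strand), and LDHA, which rose at all times (chr11:18394313-18394387, plus strand). The others are for PGD, which fell (chr1:10398814-10399043, plus strand), and PGK1 (chrX:78103998-78104173, plus strand). PGK1 rose and was then called lower at 48 h, a call lost under several other settings. The stretches of PGK1 and PGD lie inside the annotated span of their genes, which also holds transcripts that start farther upstream. Capitals mark each ACGTG or GCGTG and its reverse complement.
PFKFB3: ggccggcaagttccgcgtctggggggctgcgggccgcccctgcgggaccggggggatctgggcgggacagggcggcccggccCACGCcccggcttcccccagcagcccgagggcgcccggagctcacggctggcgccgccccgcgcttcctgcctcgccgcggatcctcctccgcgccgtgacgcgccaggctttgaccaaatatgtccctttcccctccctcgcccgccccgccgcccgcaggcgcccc
PGK1: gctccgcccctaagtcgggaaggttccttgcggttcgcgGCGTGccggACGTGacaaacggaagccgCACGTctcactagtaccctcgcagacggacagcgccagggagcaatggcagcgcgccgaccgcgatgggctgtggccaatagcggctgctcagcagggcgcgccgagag
LDHA: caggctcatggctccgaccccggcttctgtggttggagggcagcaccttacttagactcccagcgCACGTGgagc
PGD: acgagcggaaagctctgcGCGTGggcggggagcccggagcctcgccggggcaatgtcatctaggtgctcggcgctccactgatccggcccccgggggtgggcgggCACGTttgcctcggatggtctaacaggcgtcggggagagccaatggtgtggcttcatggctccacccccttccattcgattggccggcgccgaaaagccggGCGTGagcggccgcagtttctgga

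The stretch of PFKFB3 held 1 match, that of PGK1 3, that of LDHA 2 and that of PGD 3, in genes that rose and in 1 that fell. In LDHA the 2 matches overlap, as the E-box reads the same on both strands. Among such stretches not shown, those of PFKL, GAPDH and RPIA held matches. Those of HK1, PFKP, LDHB, SLC16A3, PDK1, TKT, TALDO1 and RPE held none. PFKP, SLC16A3 and PDK1 are among the genes higher at all times. The windows counted above are longer than these stretches, and a gene can have several windows.

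Several members have near-identical copies or overlapping genes, and the handling of such reads is not given in the sources used here. Genes named as pseudogenes of GAPDH numbered 65 and held 0.0400% to 0.108% of the summed counts of GAPDH and its copies in a library. Those of PGAM1 numbered 13 and held 0.419% to 2.51%, those of TPI1 at most 1.33%, and those of HK2 at most 0.694%. For SLC2A3 the copies held all of the few counts in some libraries. Exons of ALDOA overlap a gene on the same strand over 42.3% of their length and those of LDHB over 33.4%, and exons of RPE overlap a gene on the opposite strand over 23.8%, so the values of these 3 genes can include reads of their neighbors.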

How the data were processed

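The authors deposited 10 tables, 1 for each of their comparisons, and 1 was used here. It holds the estimated counts per gene and library as the authors deposited them, rounded to whole numbers. It also holds values the authors normalized by DESeq2, treated here as a score since their ratio to the counts varied from gene to gene. Per the labels, reads were single-end and the build was hg38. The study's methods name SARTools. The aligner, annotation and use of molecular identifiers are not given in the sources used here. Columns of the authors' own comparisons were not used.

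Counts were scaled with TMM factors, low genes were removed with filterByExpr, and 16522 of 60271 genes were tested with edgeR 4.0.16 (robust quasi-likelihood, 1 model over all 20 libraries, limma 3.58.1, R 4.3.3), with p-values adjusted by Benjamini-Hochberg over these genes and a threshold of 0.05. Alternatives are given at the end, DESeq2 1.42.0 among them. On simulated counts for 12 h of EGF against the control (16035 genes), 81 of 94 genes changed 2-fold and 46 of 98 changed 1.5-fold were recovered, with 7 false calls. The simulation changed only 192 of these genes, set equally up and down, with the same spread between replicates for every gene. In the data 11465 of 16522 genes were called at 12 h, so these figures do not test the scaling there. Ratios of related genes used CPM with 0.5 added. All 31 genes of the list are named. The other pathway genes named are the 2 largest called rises and falls at each time. Their mean was at least 1 CPM over all libraries. HKDC1 and PDK3 were added after their values were seen. The 31 genes and all lists were chosen with earlier results of these data known. Gene positions and exons are from GENCODE 29. Sequences are from RefSeq tables, which gave no promoter window for SLC2A3, PFKFB2 and SLC16A1. Replicates were biological replicates by the labels.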

Additional observations from a re-analysis of the deposited data

Results flagged for a closer look

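In 10 of 145 sets of 4 libraries, 1 library stood apart from the other 3 by Dixon's criterion, which chance alone meets in about 1 of 20 sets. For SLC2A1 these were replicate 1 at 24 h, with 124 CPM and the lowest of its group, and replicate 1 at 72 h, with 187 CPM. For PFKM they were control replicate 3, with 5.29 CPM, and replicate 4 at 12 h, with 4.87 CPM. For PKM they were replicate 1 at 12 h, with 789 CPM, and replicate 1 at 72 h, with 492 CPM. The others were TPI1 in replicate 3 at 24 h, with 54.3 CPM, LDHB in replicate 4 at 24 h, with 47.0 CPM, SLC16A1 in replicate 1 at 24 h, with 53.2 CPM, and TALDO1 in replicate 2 at 72 h, with 168 CPM. PGK1 was called higher than the control at 24 h (log2 fold change 0.35) and lower at 48 h (-0.13). The difference between these times was -0.48 in edgeR (adjusted p = 7.06e-08). The call at 48 h was lost with scaling by library size, without a filter, with at least 10 counts and in the fit of 8 libraries.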

How the results depend on the processing

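Of the 119 calls of single genes over the 7 comparisons, 82 passed under every alternative but the last named here. Lost were 28 with scaling by library size only, 1 of them with its sign turned, 3 with DESeq2's size factors, 2 without mitochondrial genes, 1 with DESeq2's Wald test, 10 without a filter, 9 with at least 10 counts, 17 in fits of only the 8 libraries compared, and none with the replicate number as a block or another prior count. The authors' factors per gene, tried only after seeing the data, gave a value for 115 of the 119 and ended 18 of these, 3 of them with the sign turned. Signs turned for PFKL at 12 h with library size (-0.018) and with factors per gene (-0.995), and with the latter for PFKL from 12 to 24 h (0.035) and PFKFB3 from 48 to 72 h (-0.41).

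The counts of lower genes that moved by over 1.5 times were as follows. At 12 h they were 4 with library size and 2 without a filter, and at 24 h 4 with library size. At 48 h they were 3 with library size, 3 without a filter, 2 with at least 10 counts, 1 with 8 libraries (12 calls in all) and 3 with factors per gene. At 72 h they were 2 with at least 10 counts and 2 with 8 libraries. From 12 to 24 h, library size gave 10 calls, 2 higher and 8 lower, and higher genes numbered 2 with at least 10 counts, 2 with 8 libraries and 0 with factors per gene. From 24 to 48 h, 5 were higher with library size. From 48 to 72 h, lower genes numbered 5 with library size, 2 with the replicate block and 2 with factors per gene. With library size, 3371 of all 16522 genes were lower at 48 h, and its all-gene counts for the other comparisons named here are given above. Counts of all genes under the remaining settings are not given here. Replicate numbers were only shared: of 40 pairs of same-numbered libraries, 14 had deviations correlated above 0.1, and 4 of 20 libraries correlated best with their own number.

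Leaving out 1 library gave 1 to 3 lower genes at 24 h, with 3 without control replicate 3, and 2 to 5 at 48 h. It gave 3 to 6 at 72 h, with 3 without EGF 72 h replicate 2, and 1 to 4 from 48 to 72 h. For the ratios of related genes, 26 of 40 tests were called, but 0 with sign flips within replicate numbers (the block) and 0 without any 1 library, since these designs cannot reach the threshold. With a total without mitochondrial genes, the summed share of the 31 genes was 0.798% in the control and 0.966%, 0.936%, 0.894% and 0.885% in the order of the times. The causes of these shifts were not tested. Depth limits SLC2A3 and ALDOC, which could not be tested, and leaves few counts for SLC16A3 and ENO2.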
